A study of Mus musculus with 30 samples.

Results

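Genes of the Bcl2 family of cell death regulators were followed in luminal and basal mammary epithelial cells. The 10 genes were chosen by name (Bax, Bak1, Bcl2, Bcl2l1, Bcl2l2, Bcl2l11, Mcl1, Bid, Bad and Bbc3), all 10 were among the 11137 genes of the deposited table of the series. The family controls the mitochondrial pathway of apoptosis. Bax and Bak1 encode the effectors that form pores in the outer mitochondrial membrane and release cytochrome c. Bcl2, Bcl2l1 (Bcl-xL), Mcl1 and Bcl2l2 (Bcl-w) encode the pro-survival proteins that hold the effectors in check, and the BH3-only proteins Bcl2l11 (Bim), Bbc3 (Puma), Bid and Bad relay stress or death receptor signals by binding them. In the mammary gland (MG) this pathway takes part in lumen clearing and in the removal of milk-producing cells at involution, and Bcl-xL, Mcl-1 and Bim have known roles there.

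The transcriptome of cells sorted by FACS from female mice was measured by 3′ mRNA sequencing in 30 libraries, 15 luminal and 15 basal. All mice carried K8rta, in which the Krt8 promoter drives the doxycycline-dependent activator, together with TETO CRE and the mTmG reporter. The controls (K8imTmG) had the genotype K8rta:TETO CRE:mTmG and the deleted mice (K8iΔRank) the genotype K8rta:TETO CRE:RANK fl/fl:mTmG, so that Rank, the receptor for Rankl, is removed from luminal cells while basal cells keep it. Doxycycline was given to both genotypes at 1 mg per ml of drinking water. According to the labels it ran from week 3 to week 8 of age (the published methods start it a week later). Glands were taken from virgin mice or from parous mice after involution. By the published methods, control mice nursed until their pups were removed, whereas K8iΔRank mice failed to lactate and then waited for a period mimicking involution. Genotype and lactation history therefore cannot be told apart in parous mice. Luminal libraries numbered 3 virgin K8imTmG, 3 virgin K8iΔRank, 5 parous K8imTmG and 4 parous K8iΔRank. Basal libraries numbered 3, 4, 4 and 4 in the same order. They came from 17 mice, 13 of which gave both lineages, and each replicate is a mouse.

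Values are normalized counts, that is, deduplicated reads divided by a size factor for each library. Between 340445 and 3130419 reads were recovered per library, and 1 read was worth 0.381 to 5.43 normalized counts. Because 3′ counting gives 1 read position per transcript, levels do not scale with transcript length. Other differences in counting between genes, such as overlap with neighbouring genes, were not tested, and rankings of genes by level carry that limit. The 13 luminal markers of a fixed list summed to 5762 to 20315 normalized counts in luminal libraries and 653 to 2007 in basal libraries, and the 10 basal markers to 65 to 331 and 10952 to 17878, so the sorted lineages matched their labels. Rank itself (Tnfrsf11a) overlapped between genotypes in luminal cells, at 9.57 to 18.6 in virgin K8imTmG, 11.5 to 23.8 in virgin K8iΔRank, 12.8 to 64.9 in parous K8imTmG and 27.02 to 41.1 in parous K8iΔRank libraries. By qPCR, a different measure, the paper reported reduced Rank in sorted luminal K8iΔRank cells. In sorted bulk samples fewer cells of a type and less RNA per cell cannot be told apart.

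A split of the libraries had to be marked before the genes were compared. The lectin-like receptor gene Clec2d stood at 65.6 to 199 normalized counts in 14 libraries and at 0.641 to 8.68 in the other 16, with none between, and a level of 30 divides them. All 3 luminal virgin K8iΔRank, all 3 basal virgin K8imTmG and all 4 basal parous K8imTmG libraries were Clec2d-high. All 3 luminal virgin K8imTmG, all 4 luminal parous K8iΔRank and all 4 basal virgin K8iΔRank libraries were Clec2d-low. The luminal parous K8imTmG group held 2 high (mice 494 and 557) and 3 low libraries, and the basal parous K8iΔRank group 2 high (794 and 830) and 2 low (787 and 798). The luminal and basal libraries of the same mouse lay on opposite sides in 10 of 13 mice. Whether libraries were processed in batches or exchanged was not tested, and every group value below carries that limit. RNA integrity varied between samples according to the published methods, and its part was not tested either. Reads numbered 340445 to 2677273 in Clec2d-high and 1200781 to 3130419 in Clec2d-low libraries. In both virgin genotype comparisons and in the luminal K8iΔRank parity comparison the split coincides wholly with the groups, so the split and the condition cannot be told apart there. The same holds for luminal against basal cells within virgin K8imTmG mice (all luminal low, all basal high) and within virgin K8iΔRank mice (the reverse). In the 2 parous genotype comparisons it coincides in part. So it does in luminal K8imTmG parity, in basal K8iΔRank parity and between the lineages within parous mice of each genotype.

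Short promoter sequences were read for all 10 genes from RefSeq windows that run from 250 bases before to 50 bases after an annotated start (GRCm38.p6, an older build than the GRCm39 of the counts). The members had 16 such windows. Matches were sought on both strands to the κB motif of NF-κB, the transcription factor downstream of Rank (GGG, any 2 bases, TTTCC), to the FoxO motif GTAAACA, to the cyclic AMP element TGACGTCA and to the p53 half-site. These are shown because Bbc3 and Bax are textbook p53 targets, Bcl2l11 and Bbc3 textbook FoxO targets and Bcl2l1 a textbook NF-κB target. The sites are printed in the direction of the gene, with the matched bases in capitals.
Bcl2l1, κB, chr2:152830921-152830940, minus strand: ctctcGGAAAAACCCgggag
Mcl1, κB, chr3:95658688-95658707, plus strand: cctccGGAAACGCCCgcccc
Bbc3, κB, chr7:16309442-16309461, plus strand: tgccgGGAAACCCCCcgcgc
Bcl2l11, FoxO, chr2:128125806-128125822, plus strand: ctaggGTAAACAcgccg
Bbc3, FoxO, chr7:16310089-16310105, plus strand: gggttTGTTTACaaaca
Bax, p53 half-site, chr7:45467085-45467104, minus strand: atcccAGGCAAGCTTtgaac
Among all 32851 windows 1.63% held the κB motif, 3.65% the FoxO motif, 1.79% the cyclic AMP element and 8.36% the p53 half-site. No window of a member held the cyclic AMP element. A match describes letters in the window and is not a measured binding site.

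Mcl1 had the highest mean count of the members. Its mean over 30 libraries was 589 normalized counts, above 96.8% of the genes in the table, and it made up 44.0% of the summed counts of the 10 genes in the median library (26.96 to 54.5%). Bcl2l11 followed with a mean of 186, then Bcl2 with 136, Bcl2l1 with 124, Bad with 122, Bak1 with 80.1 and Bbc3 with 59.9. Bax averaged 38.5, Bid 24.9 and Bcl2l2 18.7. No member was at 0 in any library, and the only value under 3 reads was Bcl2l2 in the basal virgin K8imTmG library of mouse 568, with 2 reads. When the 8 groups were ordered by their mean, the ranges of neighbouring groups overlapped at every step for all 10 genes.

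**Figure D1:**
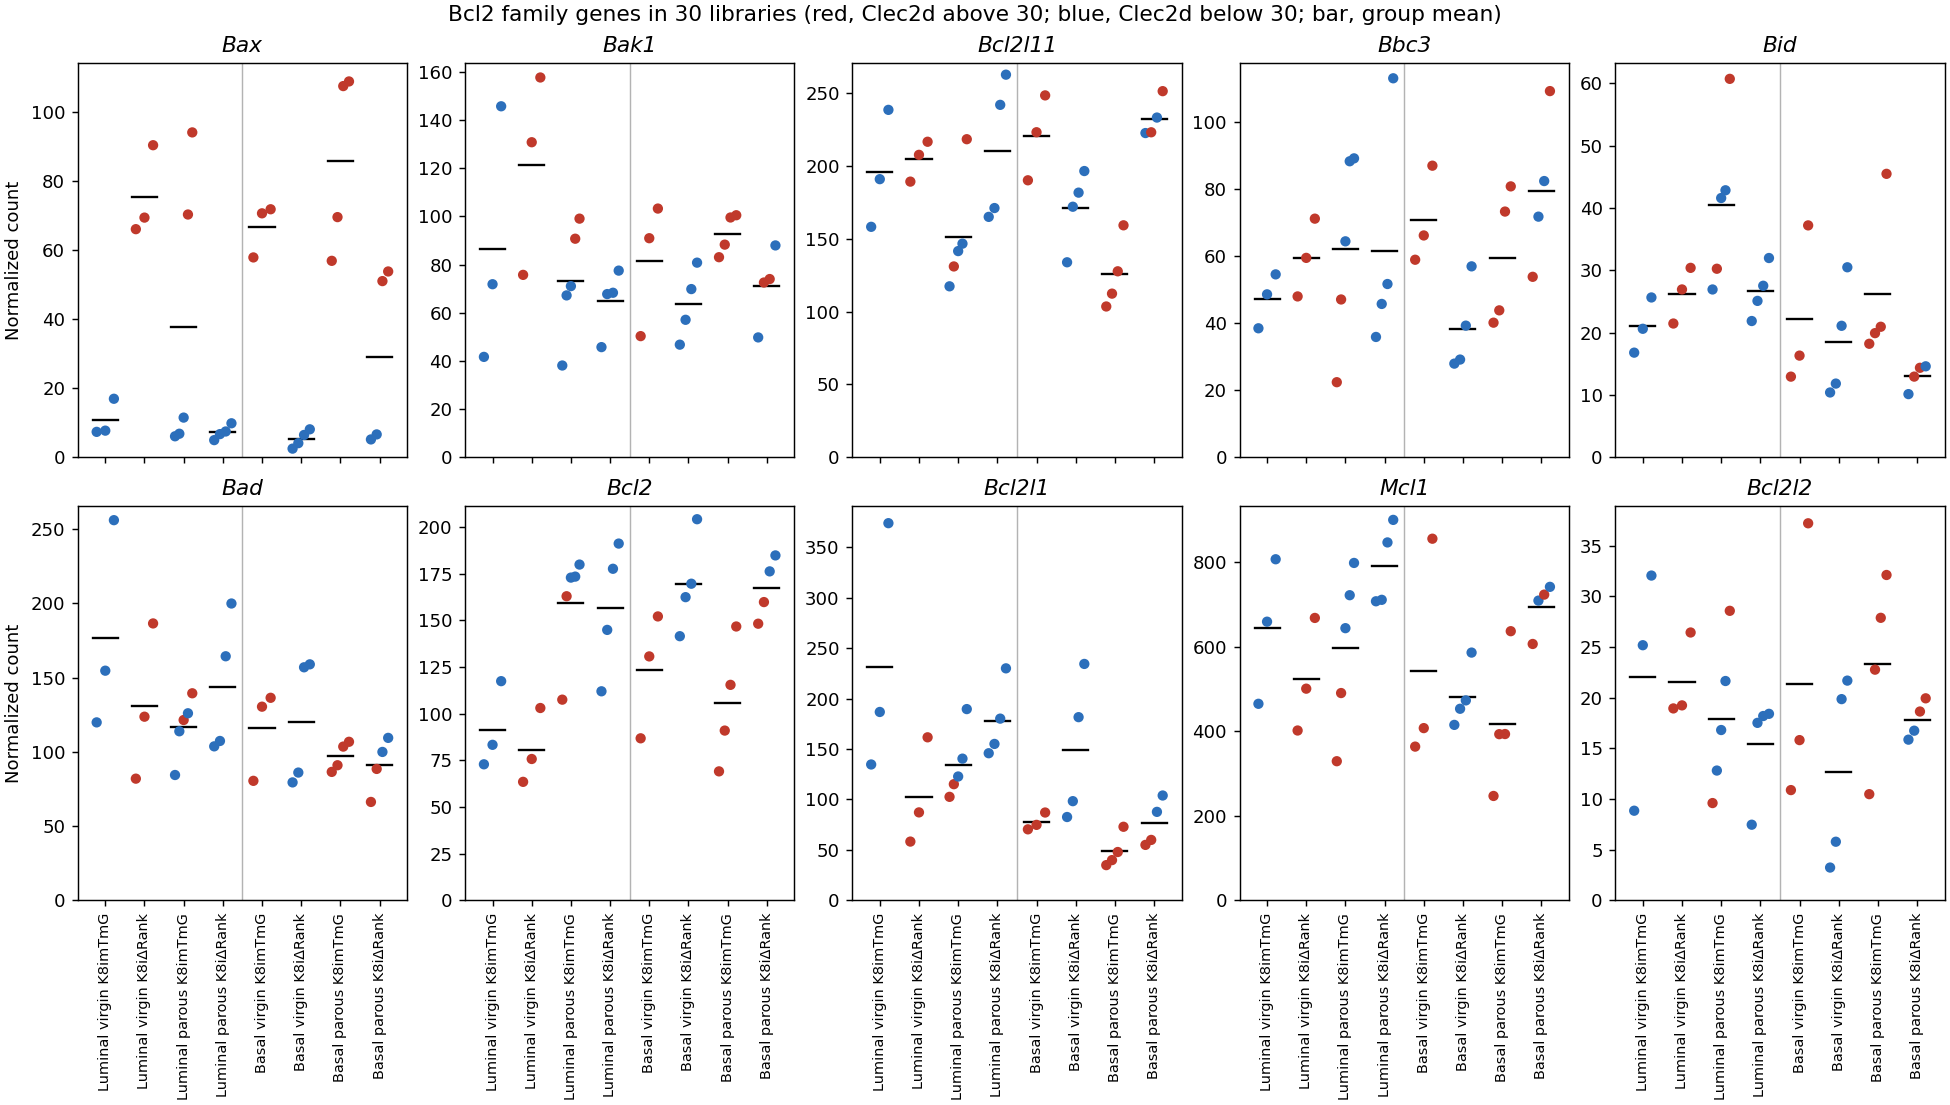
Normalized counts of the 10 genes (y axes, linear, from 0) in the 8 groups of lineage, stage and genotype; each point is a library, red where Clec2d is above 30 and blue where it is below, and bars are group means. Bax lies at 51.0 or more in every red library and at 16.9 or less in every blue library, whereas red and blue points of the other 9 genes overlap.

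Few members passed the test between genotypes or stages. With limma on log2(normalized count + 1), adjusted over all genes tested, 1 of 10 members passed in luminal virgin cells (Bax), where 0.984% of all genes did. In luminal parous cells 0 of 10 passed, against 0.0991% of genes. In basal virgin cells 1 passed (Bax), against 8.99%, and in basal parous cells 1 passed (Bcl2l11), against 0.906%. Between parous and virgin glands, 0 of 10 passed in luminal K8imTmG cells (2.2% of genes) and 2 in luminal K8iΔRank cells (Bax and Bcl2, 16% of genes). In the basal parity comparisons limma called 0 of all genes, with 969 genes at an unadjusted p under 0.05 in K8imTmG and 1036 in K8iΔRank, and edgeR called 8 and 0. Lineage was the comparison in which most genes moved, 55.7%, and 3 of 10 members passed there (Bcl2l1, Bid and Bad).

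By edgeR on the recovered reads, 1 member passed in luminal virgin (1.37% of genes), 0 in luminal parous (0.198%), 1 in basal virgin (8.2%) and 0 in basal parous genotype comparisons (0.633%). With parity 0 passed in luminal K8imTmG (2.69%), 3 in luminal K8iΔRank (15.9%), 0 in basal K8imTmG (0.0759%) and 0 in basal K8iΔRank cells (0%), and 4 passed between lineages (55.9%). At an unadjusted p under 0.05 in limma the genotype comparisons held 2 members in luminal virgin (22.1% of genes), 0 in luminal parous (19.9%), 3 in basal virgin (29.3%) and 6 in basal parous cells (22.6%). The parity comparisons held 2 in luminal K8imTmG (21.7%), 5 in luminal K8iΔRank (33%), 2 in basal K8imTmG (9.2%) and 5 in basal K8iΔRank cells (9.84%), and lineage held 3 (59.8%). By this looser count the share of members exceeded that of all genes most in the basal parous genotype and basal K8iΔRank parity comparisons and fell short of it most in luminal parous cells and between lineages. Between genotypes, groups did not overlap for 1 of 10 members in luminal virgin (28.3% of genes), 0 in luminal parous (9.73%), 2 in basal virgin (28.2%) and 4 in basal parous cells (12%). Between stages they did not overlap for 1 in luminal K8imTmG (16.9%), 4 in luminal K8iΔRank (29.7%), 1 in basal K8imTmG (9.35%) and 2 in basal K8iΔRank cells (6.1%), and between lineages for 0 (9.57%).

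The median log2 difference of the 10 members lay furthest from that of all genes in the basal virgin genotype and the basal parity comparisons. It was 0.10 against -0.03 in luminal virgin, -0.02 against 0.04 in luminal parous, -0.28 against 0.06 in basal virgin and 0.16 against 0.06 in basal parous cells for K8iΔRank minus K8imTmG. For parous minus virgin it was -0.13 against -0.01 in luminal K8imTmG, 0.02 against 0.03 in luminal K8iΔRank, -0.23 against 0.00 in basal K8imTmG and 0.31 against 0.00 in basal K8iΔRank cells. Members went in both directions in each of these comparisons, with 3 to 6 of 10 positive.

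**Figure D2:**
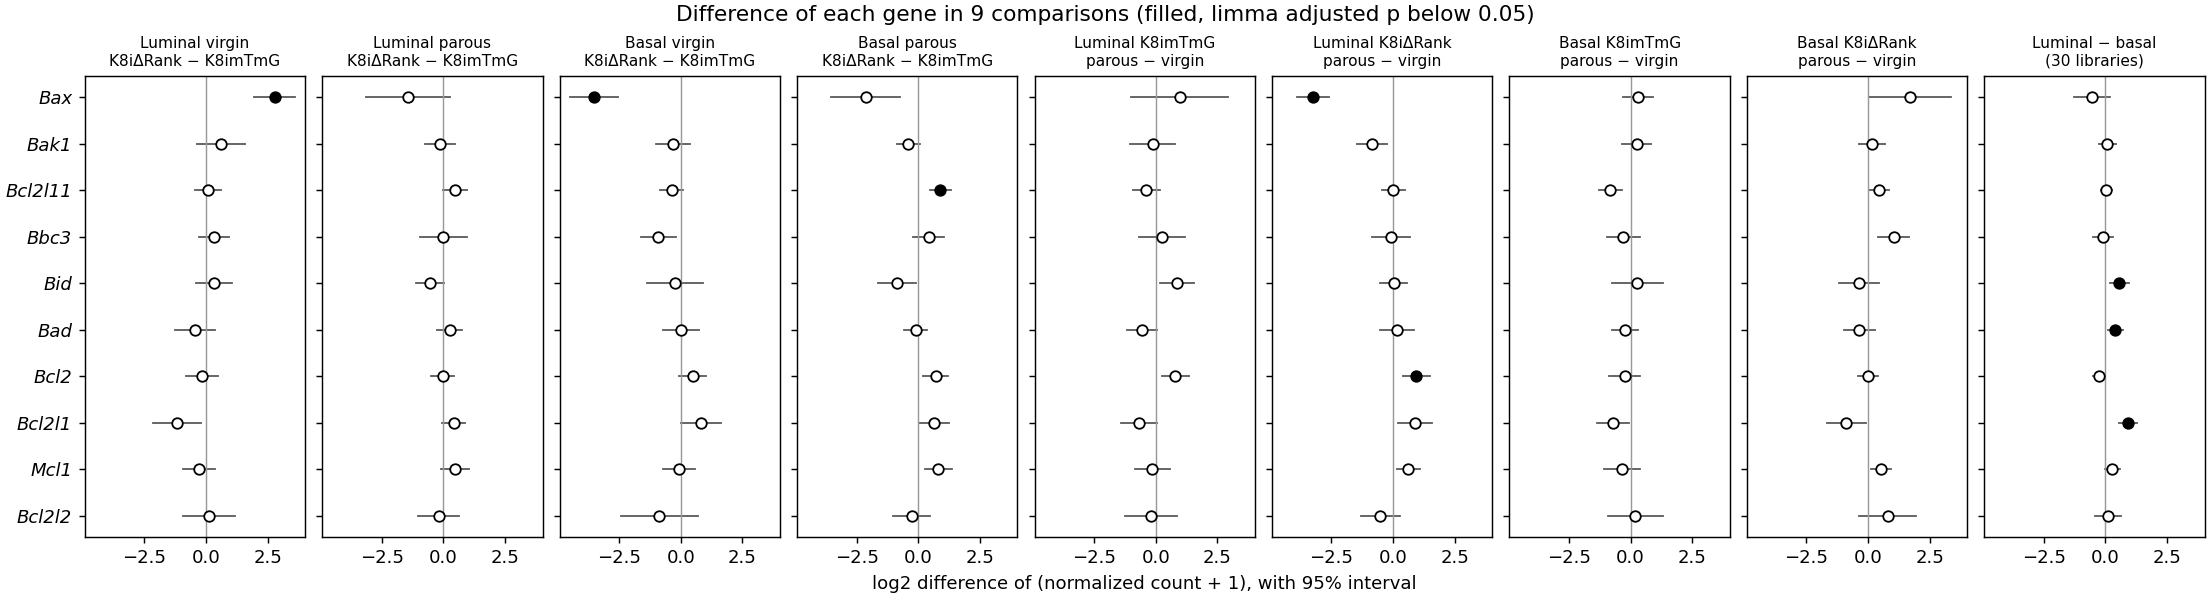
Log2 difference of (normalized count + 1) for each gene (x axes, with the 95% interval as a line) in the 4 genotype, 4 parity and the lineage comparisons; filled circles passed limma at an adjusted p below 0.05. Bax has the widest excursions, to 2.79 in luminal virgin and -3.52 in basal virgin cells, and most circles are open.

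Bax (ENSMUSG00000003873.13, chr7:45111015-45116325 of GRCm39, minus strand), the effector that moves from cytosol to mitochondria, was the member with the largest differences. In luminal virgin cells it stood at 7.34, 7.69 and 16.9 normalized counts in K8imTmG and at 66.1, 69.4 and 90.4 in K8iΔRank libraries. The groups did not overlap, as in 28.3% of genes, and the log2 difference was 2.79 ± 0.37 (SE, adjusted p = 0.0216, limma). This call was lost in 4 of 6 fits that left out a library, those of mouse 533 and of each K8iΔRank mouse (adjusted p = 0.0678 to 0.115), while the difference stayed at 2.60 to 3.15 over all 6. It was also lost with no filter (adjusted p = 0.0653) and with all luminal libraries in a single fit (0.0798). In basal virgin cells the order was the opposite, with 57.9, 70.6 and 71.8 in K8imTmG and 2.48, 4.06, 6.44 and 8.08 in K8iΔRank libraries. That difference was -3.52 ± 0.44 (adjusted p = 0.00585, limma), and 28.2% of genes had groups that did not overlap. The virgin groups also differed in depth, with 1862812 to 2422876 reads in luminal K8imTmG against 814455 to 1158036 in luminal K8iΔRank and 340445 to 1172427 in basal K8imTmG against 1200781 to 2104379 in basal K8iΔRank libraries, and its part in the difference was not tested.

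In the parous groups Bax took 2 levels within a group. Luminal K8imTmG libraries had 6.06, 6.80, 11.5, 70.3 and 94.1, the last 2 in mice 557 and 494, and luminal K8iΔRank libraries 4.95, 6.69, 7.45 and 9.83. Basal K8imTmG libraries had 56.9, 69.5, 107 and 109, and basal K8iΔRank libraries 5.15, 6.60, 51.0 and 53.8, the last 2 in mice 794 and 830. The genotype difference was -1.42 ± 0.78 in luminal (adjusted p = 0.329, limma) and -2.13 ± 0.65 in basal parous cells (adjusted p = 0.0960), the latter -2.61 without the K8iΔRank library of mouse 794 (adjusted p = 0.0250). With parity Bax fell by 3.23 on the log2 scale in luminal K8iΔRank cells (SE 0.30, adjusted p = 0.000536), and the difference was 0.98 ± 0.89 in luminal K8imTmG cells (adjusted p = 0.546).

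Every one of these levels followed the Clec2d split. Bax was at 51.0 to 109 in the 14 Clec2d-high and at 2.48 to 16.9 in the 16 Clec2d-low libraries, a log2 difference of 3.22. Of all genes, 2.2% separated the sides, and of these the gap of Bax was the second widest after Clec2d itself. Inside the 2 groups that hold both sides the difference was 3.22 in luminal parous K8imTmG and 2.97 in basal parous K8iΔRank libraries. With the side as a term in a fit of all 30 libraries, an alternative chosen after seeing the data, the luminal virgin genotype difference of Bax was -0.31 (adjusted p = 0.913, limma), that in basal virgin cells -0.42 (adjusted p = 0.818) and the parity difference in luminal K8iΔRank cells -0.13 (adjusted p = 0.9999). Since the side separates Bax completely, these values restate the split and test nothing further. The annotated genes Gm45808 on the same and Gm73431 on the opposite strand overlap Bax, and neither is in the table.

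**Figure D3:**
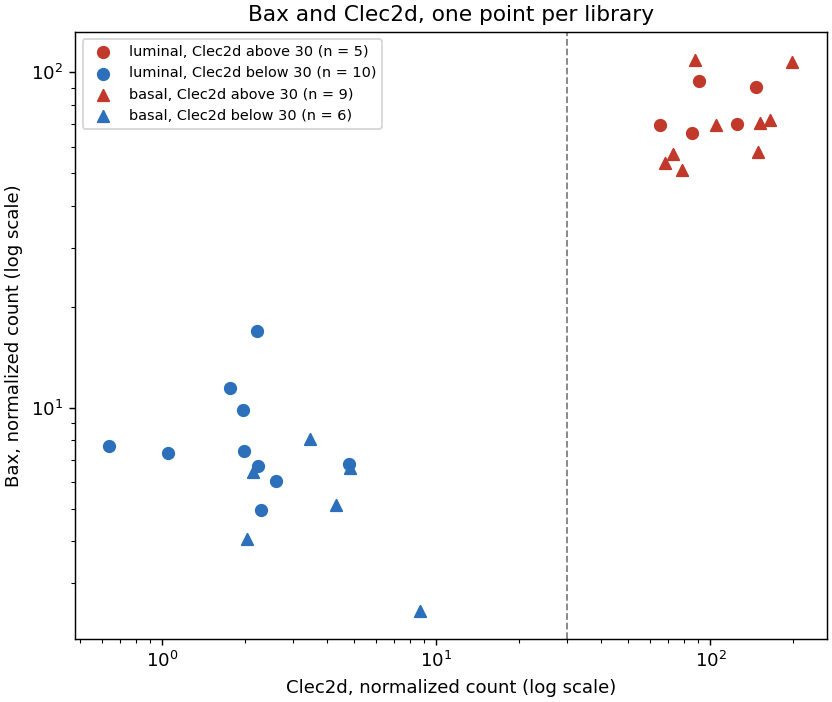
Bax against Clec2d in normalized counts (both axes on a log scale), with a point per library, circles luminal and triangles basal; the dashed line marks Clec2d at 30. The 14 libraries to its right hold Bax at 51.0 to 109 and the 16 to its left at 2.48 to 16.9, and both clouds contain luminal and basal libraries.

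Bak1 (chr17:27238784-27247983, minus strand), the effector that resides on mitochondria, varied far less. It ranged from 38.1 to 158 normalized counts over all libraries, and the medians were 90.8 in Clec2d-high and 68.0 in Clec2d-low libraries. In luminal K8iΔRank cells it stood at 75.7, 131 and 158 in virgin and 45.7, 67.7, 68.3 and 77.5 in parous libraries. These groups overlapped by a single value, and the difference of -0.86 ± 0.28 did not pass limma (adjusted p = 0.0583) and passed edgeR on the recovered reads (adjusted p = 0.0449). Without the virgin library of mouse 821 it was -1.16 (adjusted p = 0.0321, limma). Its lineage difference was 0.08 ± 0.17 (adjusted p = 0.7099, limma).

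Among the pro-survival genes, Bcl2l1 (Bcl-xL, chr2:152622582-152673655, minus strand) differed most between the lineages. Luminal libraries held 135, 187 and 374 normalized counts in virgin K8imTmG, 58.1, 87.1 and 162 in virgin K8iΔRank, 102 to 190 with a median of 123 in parous K8imTmG and 146, 155, 180 and 230 in parous K8iΔRank mice. Basal libraries held 70.3, 74.7 and 86.9 in virgin K8imTmG, 82.5, 98.2, 182 and 234 in virgin K8iΔRank, 34.8, 39.8, 47.8 and 72.8 in parous K8imTmG and 54.8, 59.8, 87.6 and 104 in parous K8iΔRank mice. Luminal cells were thus higher in 3 of the 4 conditions without any overlap, and in virgin K8iΔRank mice the lineages overlapped. The share of all genes without overlap in a condition was not counted.

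The luminal minus basal difference of Bcl2l1 over all 30 libraries was 0.90 ± 0.18 (SE, adjusted p = 7.89e-05, limma). With the mouse as a block in the 13 mice that gave both lineages it was 1.04 ± 0.25 (adjusted p = 0.00243), and luminal cells were higher in 12 of 13 mice. The exception was mouse 825, a virgin K8iΔRank animal with 58.1 in luminal and 182 in basal cells. How many of all genes were higher in as many mice was not counted. The fits per condition and within a side did not take the mouse as a block. Taken per condition, the difference was 1.44 in virgin K8imTmG (adjusted p = 0.0131), -0.54 in virgin K8iΔRank (adjusted p = 0.357), 1.46 in parous K8imTmG (adjusted p = 0.000941) and 1.23 in parous K8iΔRank mice (adjusted p = 0.00168). In the same order 3906 of 10796, 3928 of 10927, 3297 of 10751 and 4034 of 10913 genes passed. In the virgin conditions the differences of Bcl2l1 cannot be told apart from the Clec2d side. In the parous conditions lineage coincides with the side in part. Bcl2l1 was lower in Clec2d-high than in Clec2d-low libraries, with medians of 71.5 and 150. Within a side the lineage difference was 0.76 among Clec2d-high (adjusted p = 0.0191, limma; 36.2% of genes passed) and 0.62 among Clec2d-low libraries (adjusted p = 0.0579; 44.6% of genes passed).

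**Figure D4:**
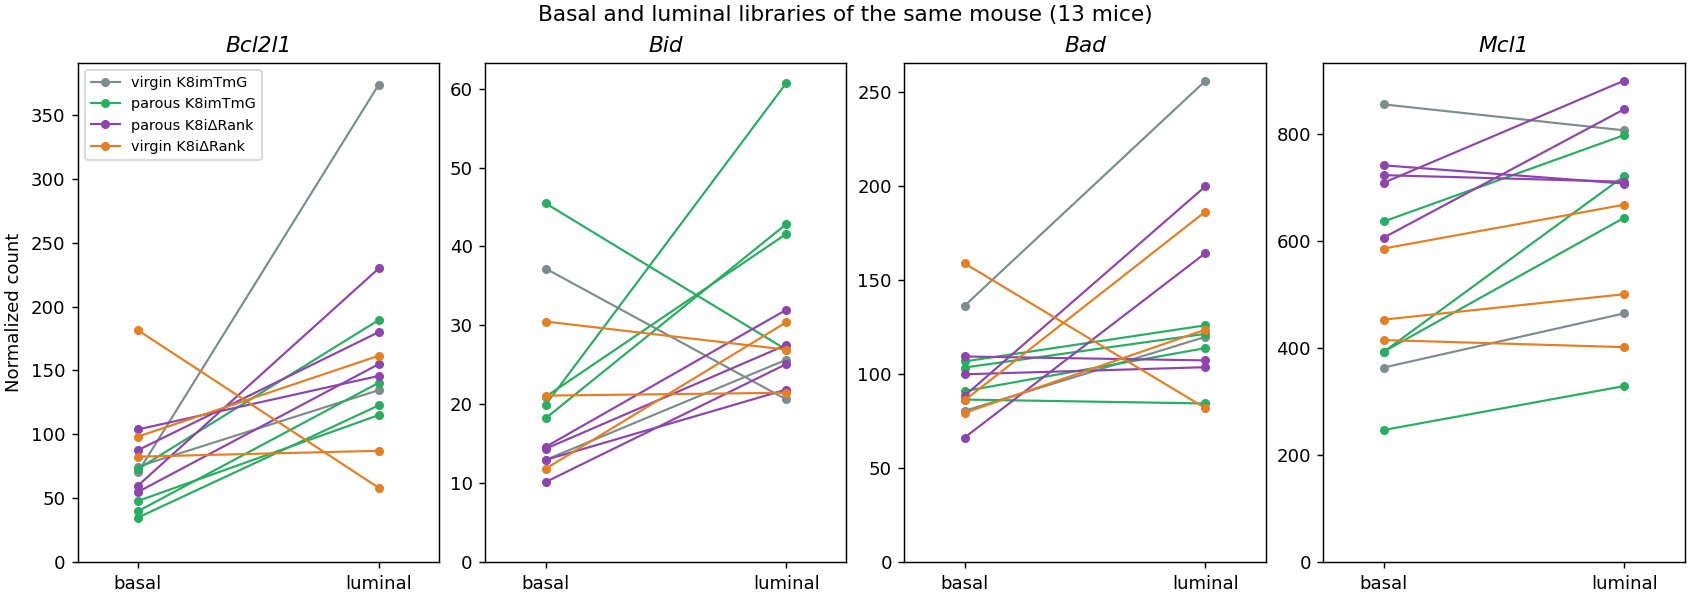
Normalized counts (y axes, from 0) of Bcl2l1, Bid, Bad and Mcl1 in the basal and luminal libraries of the same mouse, joined by a line for each of 13 mice and coloured by stage and genotype. Bcl2l1 was higher in the luminal library of 12 of 13 mice, Bid and Bad of 10 and Mcl1 of 9.

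Bcl2l1 was also the member, besides Bax, whose luminal genotype difference depended on stage. It was -1.16 ± 0.44 in virgin (adjusted p = 0.162, limma) and 0.41 ± 0.21 in parous luminal cells (adjusted p = 0.301), neither of which passed. The test of the difference between them gave 1.58 ± 0.49 (adjusted p = 0.0456), where 12.9% of all genes passed, and the same test gave -4.21 ± 1.04 for Bax (adjusted p = 0.0218). For Bcl2l1 the call was lost with edgeR (adjusted p = 0.0544), with no filter (0.0510), with quantile normalization (0.0584) and when any of 12 of the 15 libraries was left out (1.17 to 1.67, adjusted p = 0.0511 to 0.132). With the Clec2d side in the fit it was 0.78 (adjusted p = 0.701, limma), in a comparison where that fit called 0 genes. As side and genotype coincide wholly in virgin cells, this value cannot tell them apart. Bax kept this call without any single library (adjusted p at most 0.0494). With the side in the fit it was 0.13 (adjusted p = 0.967), which again restates the split. In basal cells no gene passed the corresponding test with limma or edgeR, and 1082 genes (10.2%) had an unadjusted p under 0.05, 3 members among them. In luminal cells 3 members and 32.7% of genes did.

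Bcl2 (chr1:106465908-106642060, minus strand), the founding pro-survival member, rose with parity in luminal K8iΔRank cells. Virgin libraries stood at 63.5, 75.7 and 103 and parous libraries at 112, 145, 178 and 191 normalized counts, without overlap, as in 29.7% of genes. The difference was 0.95 ± 0.24 (adjusted p = 0.0260, limma; 0.0338 with edgeR). Luminal K8imTmG libraries showed 72.9, 83.3 and 117 in virgin and 108, 163, 173, 173 and 180 in parous mice, a difference of 0.80 ± 0.25 that did not pass (adjusted p = 0.109). In that comparison the lowest parous value came from the Clec2d-high library of mouse 494. Without this library the difference was 0.94 (adjusted p = 0.0349), and with Clec2d-low libraries alone it was 0.97 (adjusted p = 0.0302).

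The summed level of the 6 fibroblast markers was 713 to 852 in virgin and 173 to 416 in parous luminal K8iΔRank libraries, without overlap, and that of the 10 basal markers 104 to 331 and 65.3 to 105. Their part in the difference was not tested.

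The parity call of Bcl2 in luminal K8iΔRank cells coincided with the Clec2d split. With the side in a fit of all 30 libraries the difference was 0.62 (adjusted p = 0.9999, limma), in a comparison where that fit called 0 genes. As stage and side coincide wholly here, this value cannot tell them apart. The call was lost without the virgin library of mouse 821 (adjusted p = 0.0778) or 822 (0.0642), without the parous library of mouse 787 (0.0642) or 830 (0.0762), and with all luminal libraries in a single fit (0.0575). In basal cells Bcl2 showed no parity difference past the test, with -0.24 ± 0.29 in K8imTmG (adjusted p = 0.817) and -0.01 ± 0.18 in K8iΔRank libraries (adjusted p = 0.982). Its luminal minus basal difference was -0.25 ± 0.12, which did not pass limma (adjusted p = 0.0871). It passed edgeR (-0.30, adjusted p = 0.0425), where 55.9% of genes did. Over 12 alternatives the lineage difference ran from -1.08 to 0.62 and passed in 4, and basal cells were higher in 7 of 13 mice. Basal parous libraries had 69.1, 90.9, 115 and 147 in K8imTmG and 148, 160, 176 and 185 in K8iΔRank mice. These groups did not overlap, as in 12% of genes, and the difference of 0.71 ± 0.23 did not pass (adjusted p = 0.116, limma). All 4 K8imTmG libraries were Clec2d-high. Of the K8iΔRank libraries, those at 148 and 160 were Clec2d-high and those at 176 and 185 Clec2d-low.

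Mcl1 (chr3:95566026-95570487, plus strand), a short-lived pro-survival protein, had no call in the genotype or parity comparisons. Its highest group was luminal parous K8iΔRank, with 708, 711, 847 and 901 normalized counts, and its lowest basal parous K8imTmG, with 247, 393, 393.5 and 637. In basal parous K8iΔRank libraries it was 607, 710, 724 and 742, and the genotype difference there was 0.81 ± 0.26 (adjusted p = 0.105, limma). Without the K8imTmG library of mouse 558 that difference was 1.04 (adjusted p = 0.0472). Luminal cells exceeded basal cells by 0.28 ± 0.15 in the unpaired fit (adjusted p = 0.104) and by 0.28 ± 0.11 with the mouse as a block (adjusted p = 0.0439), in 9 of 13 mice. Bcl2l2 (chr14:55120778-55126551, plus strand) stood at 3.22 to 37.2 normalized counts and had 2 to 50 reads per library, and no difference of it passed in any comparison. At this depth its differences had standard errors of 0.26 to 0.78 on the log2 scale, and a readthrough gene, Gm20521, overlaps it on the same strand.

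Bcl2l11 (Bim, chr2:127967958-128004476, plus strand), a BH3-only protein that binds all pro-survival members, was the member that differed in basal parous cells. K8imTmG libraries had 104, 112, 128 and 159 normalized counts and K8iΔRank libraries 223, 223, 233 and 251. The groups did not overlap, as for 4 of 10 members and 12% of genes, and the difference was 0.90 ± 0.19 (SE, adjusted p = 0.0495, limma). The 2 Clec2d-high K8iΔRank libraries (223 and 251) and the 2 Clec2d-low ones (223 and 233) overlapped, and all 4 K8imTmG libraries were Clec2d-high. Among Clec2d-high libraries alone it was 0.93 (adjusted p = 0.313, in a fit that called 0 genes), and with the side in the fit of all libraries 1.00 (adjusted p = 0.0511).

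The Bcl2l11 call lay at the threshold. It was lost with edgeR (0.86, adjusted p = 0.0592), with no filter (adjusted p = 0.0577), with quantile normalization (adjusted p = 0.0556) and in 6 of 8 fits that left out a library, namely those of mice 532, 534 and 557 among K8imTmG and 787, 798 and 830 among K8iΔRank. Over all 8 such fits the difference was 0.81 to 1.02 and the adjusted p 0.0211 to 0.157. The basal parous K8imTmG libraries were also shallower, with 450064 to 1365008 reads against 1844364 to 2996649, had a summed luminal marker level of 653 to 919 against 1021 to 1336, and a summed basal marker level of 13580 to 15760 against 10950 to 11930. The endothelial list, with 6 of 7 genes in the table, summed to 87.6 to 172 in K8imTmG and 108.5 to 195 in K8iΔRank libraries. Their part in the difference was not tested.

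In virgin basal cells Bcl2l11 went the other way without passing. K8imTmG libraries had 190, 223 and 248 and K8iΔRank libraries 134, 172, 182 and 197, a difference of -0.37 ± 0.21 (adjusted p = 0.275, limma). Parity gave -0.82 ± 0.22 in basal K8imTmG cells (adjusted p = 0.314), where the groups did not overlap, as in 9.35% of genes. In basal K8iΔRank cells it gave 0.45 ± 0.18 (adjusted p = 0.4927), again without overlap, as in 6.1% of genes. The test of genotype by stage in basal cells gave 1.27 ± 0.27 for Bcl2l11, which ranked 7 of 10607 genes by p (unadjusted p = 0.000209) and did not pass (adjusted p = 0.310, limma; 0.287 with edgeR). With the side in a fit of all 30 libraries the basal K8imTmG parity difference was -0.82 and passed (adjusted p = 0.0430, limma). That fit called 120 genes in this comparison, against 0 in the fit of its own libraries. All libraries of both groups were Clec2d-high, so the side term could not change the size of the difference and tests nothing about the split. Luminal libraries ranged from 117 to 263, and the lineage difference was 0.04 ± 0.10 (adjusted p = 0.758).

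Bbc3 (Puma, chr7:16042318-16052130, plus strand), a target of p53, had no call. It was lowest in basal virgin K8iΔRank libraries, at 27.9, 29.1, 39.2 and 56.9 normalized counts, below the 58.9, 66.1 and 86.9 of virgin K8imTmG (-0.91 ± 0.32, adjusted p = 0.0950, limma). These groups did not overlap, as in 28.2% of genes. In basal parous K8iΔRank libraries it stood at 53.8, 71.7, 82.4 and 109, so that parity gave 1.04 ± 0.29 (adjusted p = 0.394). Luminal groups overlapped throughout, between 22.4 and 113. In the endothelial list the basal virgin libraries stood above the basal parous ones, with 217 to 547 in K8imTmG and 279 to 1220 in K8iΔRank against at most 195 in parous libraries, and its part in these values was not tested.

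Bid (chr6:120862525-120894171, minus strand), which caspase-8 cleaves to link death receptors to mitochondria, was higher in luminal than in basal cells. Luminal parous K8imTmG libraries had 26.9, 30.2, 41.6, 42.8 and 60.7 normalized counts and luminal parous K8iΔRank libraries 21.9, 25.1, 27.5 and 31.96. The matching basal libraries had 18.2, 19.9, 20.9 and 45.5 in K8imTmG and 10.1, 12.9, 14.3 and 14.6 in K8iΔRank mice. The lineage difference was 0.57 ± 0.18 (adjusted p = 0.00904, limma), 0.63 ± 0.22 with the mouse as a block (adjusted p = 0.0245), and luminal cells were higher in 10 of 13 mice. Per condition it passed in parous K8iΔRank mice (0.98, adjusted p = 0.00575), where 4034 of 10913 genes did. It was 0.05 in virgin K8imTmG, 0.60 in virgin K8iΔRank and 0.66 in parous K8imTmG mice (adjusted p = 0.943, 0.278 and 0.168). In luminal K8imTmG cells the parous libraries lay above all virgin ones (16.8, 20.6 and 25.6), as in 16.9% of genes, without passing (0.88 ± 0.31, adjusted p = 0.147). Within a side the lineage difference of Bid was 0.80 among Clec2d-high (adjusted p = 0.0654) and 0.87 among Clec2d-low libraries (adjusted p = 0.00577). Bid overlaps Bcl2l13 on the opposite strand, and whether counting used strand is not given in the sources used here.

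Bad (chr19:6918902-6929280, plus strand), a BH3-only protein switched off by survival kinases, showed the smallest lineage difference that passed. It ranged from 81.9 to 256 in luminal and from 66.2 to 159 in basal libraries, so the lineages overlapped widely. The difference was 0.39 ± 0.15 (adjusted p = 0.0273, limma) and 0.42 ± 0.17 with the mouse as a block (adjusted p = 0.0439), and luminal cells were higher in 10 of 13 mice. The call was lost without the luminal library of mouse 538, 822 or 794 or the basal library of mouse 531 (adjusted p = 0.05003 to 0.0727), and in none of the 4 conditions alone did it pass (0.11 to 0.62). It was also lost within a side, at 0.43 among Clec2d-high (adjusted p = 0.116) and 0.31 among Clec2d-low libraries (adjusted p = 0.292). No genotype or parity difference of Bad passed. Bad and Bak1 overlap Gpr137 and Ggnbp1 on the opposite strand.

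Correlations among the members over the 30 libraries, which share depth and the Clec2d split, were mostly weak. Of 45 pairs 24 were negative, with a median r of -0.02. Bad and Bcl2l1 were the most alike (Pearson r = 0.70), followed by Bak1 and Bax (0.60) and Mcl1 and Bcl2l11 (0.51). Bcl2l1 and Bax were the least alike (-0.59). Among all genes of the table, the pattern of Bax was closest to Lamtor2 (0.97), Cops9 (0.95) and Rnf10 (0.95) and that of Bcl2l1 to Ctsd (0.89), Elovl1 (0.89) and Shisa5 (0.88). Bad was closest to Nprl2 (0.87), Mcl1 to Itpkc (0.81), Bak1 to Swi5 (0.80), Bcl2l2 to Slc30a7 (0.80), Bcl2l11 to Skil (0.78), Bid to Denr (0.75) and Bbc3 to Cacna1a (0.72).

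Larger lineage differences occurred among other genes of the cell death pathway. Of the remaining Bcl2 family, 7 of 17 listed genes were in the table, and 4 were higher in luminal and 1 in basal cells, where 55.7% of all genes passed, 28.7% higher in luminal and 27% in basal cells. Bik, a BH3-only gene, averaged 88.7 in luminal and 5.58 in basal libraries (log2 difference 4.49 ± 0.29), Bcl2l14 49.4 and 1.14 (4.69 ± 0.26), Bcl2l13 53.3 and 24.4 (1.09 ± 0.16) and Bmf 17.1 and 8.89 (0.99 ± 0.36). Bok, an effector-like gene, averaged 2.16 in luminal and 41.5 in basal libraries (-4.04 ± 0.30). Each of these passed limma, with adjusted p from 1.48e-15 for Bcl2l14 to 0.0204 for Bmf.

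Further down the pathway both directions occurred, and the counts of each list are to be read against the 55.7% of all genes that passed. Of 14 apoptosome and caspase genes 4 were higher in luminal cells, among them Casp8 (37.1 against 21.3) and Casp9 (27.6 against 17.7), and 4 in basal cells, among them Apaf1, the scaffold of the apoptosome (13.7 against 43.1). Of 7 death receptor genes tested 5 were higher in basal cells, including Fas (13.9 against 37.5), and 2 in luminal cells, including the adaptor Fadd (20.6 against 9.54). The inhibitor of apoptosis genes Birc2 and Birc6 were higher in luminal cells, and the other 3 of 5 did not pass. Of 15 genes of p53 and its targets 6 were higher in basal cells, led by Phlda3 (5.67 against 216, -4.98 ± 0.18) and Perp (121 against 594, -2.24 ± 0.13), and 3 in luminal cells. Of 10 mitochondrial partners of the family 5 were higher in luminal cells, for example Vdac1 (274 against 152), and 1 in basal cells, the co-chaperone Bag3 (211 against 578).

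Between genotypes few of these genes passed. Bcl2l13 (-1.64 ± 0.29, adjusted p = 0.0349, limma) and Cdkn1a, the cell cycle inhibitor p21 (-1.74 ± 0.29, adjusted p = 0.0349), were lower in luminal virgin K8iΔRank than K8imTmG cells, and none passed in luminal parous cells. Without the K8iΔRank library of mouse 822 no gene passed in luminal virgin cells. In basal virgin cells Casp2 was higher (1.16 ± 0.30) and Tmbim6 lower (-1.52 ± 0.41) in K8iΔRank mice, with adjusted p of 0.0432 and 0.0476 (limma). With edgeR 0 apoptosome and caspase genes and 0 mitochondrial partners passed there. The Clec2d split coincides wholly with genotype in these cells. In basal parous cells Cdkn1a (74.5 in K8imTmG and 221 in K8iΔRank libraries, 1.501 ± 0.30) and Trp53inp1 (29.3 and 78.1, 1.41 ± 0.28) were higher in K8iΔRank mice, both with an adjusted p of 0.0436 (limma). With edgeR only 1 gene of the list of p53 and its targets passed there. Bcl2l11 was higher in the same libraries. All 3 calls were lost among Clec2d-high libraries alone and without the library of mouse 532, 534, 787, 798 or 830, where 0 genes passed.

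With parity, luminal K8imTmG cells showed a rise of the death receptor Fas (4.31 to 22.6, 2.20 ± 0.41) and a fall of the p53 targets Trp53inp1 (272 to 47.6, -2.56 ± 0.41) and Zmat3 (166 to 62.6, -1.36 ± 0.24), with adjusted p from 0.0242 to 0.0354 (limma). In luminal K8iΔRank cells Bcl2l13, Ddit3, Bag1 and Tmbim1 rose by 0.76 to 1.19 and Bmf, Casp6 and Tmbim6 fell, with differences of -0.91 to -1.31, in the comparison in which 16% of all genes passed. The luminal genotype difference depended on stage for 6 listed genes, namely Trp53inp1 (2.68), Cdkn1a (2.49), Bcl2l13 (2.04), Zmat3 (1.79), Tmbim1 (1.34) and Dffb (-2.66), where 12.9% of all genes passed. None of the listed genes passed in the basal parity comparisons.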

How the data were processed

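The authors trimmed the reads, removed duplicates by unique molecular identifiers with UMI-tools, aligned to GRCm39 with Bowtie2 and deposited gene counts divided by DESeq2 size factors, a signal per gene and library, keeping genes above 10 in at least 25% of libraries (true of 11133 of the 11137 genes). All 30 columns were used. In each library 100% of values were whole multiples of a step (tolerance 0.01), which gave back the reads. Groups were compared with limma 3.58.1 (R 4.3.3) (eBayes, trend) after adding 1 to each value and taking log2, for genes above 10 in 25% of the libraries compared, and adjusted by Benjamini-Hochberg at 0.05. Differences on this scale understate changes of low genes. Comparisons of 2 groups used only their libraries, lineage all 8 group means, and stage dependence the 4 groups of a lineage. Alternatives were a pseudocount of 4, no filter, quantile normalization, edgeR 4.0.16 on the recovered reads, a fit per lineage, the mouse as a block, each side of the Clec2d split and each library left out. The lineage per condition and the Clec2d side as a covariate were added after seeing the data. Lineage fits per condition and within a side left the pairing by mouse out. Luminal and basal libraries came from the same animals according to their labels, and their deviations from the group means correlated at -0.24 to 0.34 (median 0.09), above 0.1 in 6 of 13 mice. Tests were tried on simulated data. Members and lists were chosen with earlier results of these data known. All 10 members were named, others where a listed gene passed, and likeness was the highest Pearson r over 30 libraries. No 2 replicates held the same library (chi-square per degree of freedom at least 2.67 in 43 pairs). Coordinates of genes are from GENCODE vM39, a later release than the one counted. Protein sequences were not used here. Some listed genes are not reported here.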

Additional observations from a re-analysis of the deposited data

Results flagged for a closer look

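In 3 of 50 sets of 4 or 5 libraries (a member in a group) a library stood apart by Dixon's ratio of gap to range, a rate that chance alone gives at about 1 in 20. In luminal parous K8imTmG cells Bcl2 was 108 in mouse 494, a Clec2d-high library, against 163 to 180 in the other 4 libraries. In luminal parous K8iΔRank cells Bcl2l2 was 7.45 in mouse 830 against 17.5 to 18.4 in the other 3. In basal parous K8imTmG cells Bid was 45.5 in mouse 534 against 18.2 to 20.9 in the other 3.

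The luminal genotype difference depended on stage for Bax (-4.21) and for Bcl2l1 (1.58) by the interaction term of limma. For Bax the value followed the Clec2d side of the libraries, which was high in all virgin K8iΔRank, low in all virgin K8imTmG and all parous K8iΔRank, and mixed in parous K8imTmG libraries. No within-side value could be had, since no side held all 4 luminal groups.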

How the results depend on the processing

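Of the log2 differences of members under the alternatives, 1759 kept both their sign and their side of the threshold. With the same sign, 57 lost and 26 gained a call. Without a call in either fit, 99 changed sign. The other 4 reversed, that is, changed sign with a call in either fit. The reversals were the lineage difference of Bax (3.69, adjusted p = 8.62e-05) and Bcl2l1 (-0.54, adjusted p = 0.357, limma) in virgin K8iΔRank mice alone, and, with the Clec2d side as a covariate, Bax in the luminal virgin genotype comparison (-0.31) and in its dependence on stage (0.13). The block by mouse moved no count by over 1.5 times (5255 of 11064 genes) and added Mcl1 (0.28, adjusted p = 0.0439, limma) to the 3 lineage members.

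Counts of genes called moved by over 1.5 times as follows. Without a filter the luminal virgin genotype count went from 99 to 5, basal parous genotype from 96 to 11 and luminal K8imTmG parity from 226 to 106. A pseudocount of 4 gave 186 in basal parous genotype and 2 in basal K8imTmG parity. With edgeR luminal parous genotype had 20 and basal K8imTmG parity 8. With all libraries of a lineage in a fit the counts were 42 in luminal parous, 1803 in basal virgin (954 before) and 170 in basal parous genotype, 789 in luminal K8imTmG and 222 in luminal K8iΔRank parity (1643 before). On the Clec2d-low side luminal parous genotype had 42 and luminal K8imTmG parity 1285, and on the high side basal parous genotype 0 and lineage 3941 (6197 before). Lineage had 3906, 3928, 3297 and 4034 genes in virgin K8imTmG, virgin K8iΔRank, parous K8imTmG and parous K8iΔRank mice alone. With the side as a covariate the counts were 0 in luminal and basal virgin genotype, luminal K8iΔRank parity and luminal stage dependence, 71 in luminal and 8 in basal parous genotype, 968 in luminal and 120 in basal K8imTmG parity, 2 in basal K8iΔRank parity and 2 in basal stage dependence.

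Members called became 0 in luminal virgin genotype without a filter, in the lineage fit and with the side covariate, and 0 in basal parous genotype without a filter, with quantile normalization, with edgeR, on the Clec2d-high side and with the covariate. They became 1 in luminal K8imTmG parity (Clec2d-low side, covariate), 1 (lineage fit) or 0 (covariate) in luminal K8iΔRank parity, 1 in basal K8imTmG parity (covariate), 0 in basal virgin genotype (covariate), 1 for lineage on the Clec2d-high side or in parous K8imTmG mice, and 1 (no filter, quantile normalization, edgeR) or 0 (covariate) in luminal stage dependence.

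Leaving out a library gave 0 to 247 genes and 0 to 1 members in luminal virgin, 0 to 21 and 0 in luminal parous, 281 to 953 and 1 in basal virgin and 0 to 1050 and 0 to 2 in basal parous genotype, 3 to 732 and 0 to 1 in luminal K8imTmG, 729 to 1570 and 1 to 3 in luminal K8iΔRank, 0 to 4 and 0 in basal K8imTmG and 0 to 1 and 0 in basal K8iΔRank parity, 5946 to 6323 and 2 to 4 for lineage, and 336 to 1533 and 1 to 2 for luminal and 0 and 0 for basal stage dependence. The luminal virgin call of Bax was lost without the K8imTmG library of mouse 533 or any K8iΔRank library (adjusted p = 0.0678 to 0.115). The causes were not tested. No fit within a side could be made for the virgin genotype comparisons, luminal K8iΔRank parity or stage dependence. With 3 to 5 libraries a group and as few as 2 reads for Bcl2l2, differences of low genes are the least precise.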
